A study of Rattus norvegicus with 9 samples.

Results

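Arteries of the spontaneously hypertensive rat (SHR) were compared with arteries of Wistar-Kyoto rats (WKY) that had received adrenocorticotropic hormone (ACTH), so both sides of the comparison were models of hypertension. It used 6 of the 9 arrays of the series, namely SHR 1 to 3 and ACTH 1 to 3, and the remaining 3 arrays, from untreated WKY, served as a reference. The SHR and WKY arrays came from rats labelled as having had no treatment. The ACTH arrays came from WKY rats given ACTH under the skin for 4 weeks, at 0.1 mg/kg/day by the labels although the study's methods give a higher dose, from the age of 12 weeks. All rats were males aged 16 weeks, and each array held RNA of a primary branch of the saphenous artery, a small artery of the hind limb, pooled from 2 to 3 rats. Of 15866 probesets on the Affymetrix RAE230A array that are not controls, the 9099 whose third-highest MAS5 signal over the 9 arrays was 44.3 or more were kept. The lowest value kept was 44.3057 and the highest left out was 44.2985. A probeset that is bright on the 3 arrays of 1 group alone passes this rule, which thus favours calls in which that group is high. A probeset is a set of short probes for 1 transcript, and MAS5 signal is its brightness after background correction and scaling of the array.

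SHR is an inbred strain, bred from WKY stock for raised blood pressure, in which hypertension develops without treatment. ACTH is the pituitary hormone that makes the adrenal cortex release glucocorticoids, which act on the vessel wall through nuclear receptors and raise blood pressure when given for weeks. Small arteries set the resistance to blood flow through the contraction of smooth muscle, the amount and kind of extracellular matrix and signals from the endothelium. The groups differed in strain and in treatment at the same time, so that strain and ACTH cannot be told apart from the SHR and ACTH arrays alone. Signals of the untreated WKY arrays are therefore given for many genes.

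The arrays were alike in overall signal, with a trimmed mean of 150 on each and a median signal of the non-control probesets between 52.3 and 58.1. Transcripts of smooth muscle, the main cell type of an artery, were bright on every array. Myh11, smooth muscle myosin, had signals of 5575, 6293 and 5293 on ACTH 1 to 3 and 6387, 7552 and 6849 on SHR 1 to 3. The ratio of 3' to 5' signal, a measure of RNA degradation, was 4.17 ± 0.86 in SHR and 4.05 ± 0.436 in ACTH for GAPDH (SD, n = 3 arrays each, exact two-sided permutation test, p = 0.9). The GAPDH ratio of 3' to middle signal was 1.42 ± 0.124 in SHR and 1.67 ± 0.0476 in ACTH without overlap (p = 0.1 by the exact test, the smallest it can give for 3 against 3 arrays), and its part in the differences below was not tested. The 3' to 5' ratios that the study reports for hexokinase were higher on every ACTH array than on any SHR array. Their part was not tested either. All 3 ACTH arrays and SHR 3 were scanned on the same day, and SHR 1 and SHR 2 on another day together with WKY 2. In a fit blocked by scan day, SHR 3 alone sets the difference from ACTH. Of the 24 largest differences among called probesets with a symbol, 12 were called in that fit (5 of 12 increases and 7 of 12 decreases), and its adjusted p is given beside those described.

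A small share of the transcripts passed the threshold for a difference between SHR and ACTH arteries. In a limma fit of log2 signal over the 9 arrays, 309 probesets, 3.4% of those kept, passed a Benjamini-Hochberg adjusted p of 0.05 and are termed called here. Of these, 143 (1.57%) were higher and 166 (1.82%) lower in SHR than in ACTH. Before adjustment 1564 of the kept probesets had a limma p under 0.05, so that those not called are not shown to be alike. The groups of 3 arrays did not overlap for 2269 probesets, 24.9% of those kept, and all 309 called probesets were among these. The median difference over all kept probesets was -0.02 on the log2 scale, and 243 differed by more than 2-fold. Called increases had a median difference of 0.95 (log2) and 65 exceeded 2-fold, while called decreases had a median of 1.06 in size and 94 exceeded 2-fold. In a fit blocked by scan day, 35 probesets were called, of which 30 were among the 309. That estimate rests on SHR 3 alone, and for a called probeset its sign cannot turn because the groups do not overlap. The count was 111 without ACTH 1, 174 without ACTH 2, 134 without ACTH 3, 131 without SHR 2 and 191 without SHR 3. In all 9 fits that each left out 1 array, 91 of the 309 were called.

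**Figure D1:**
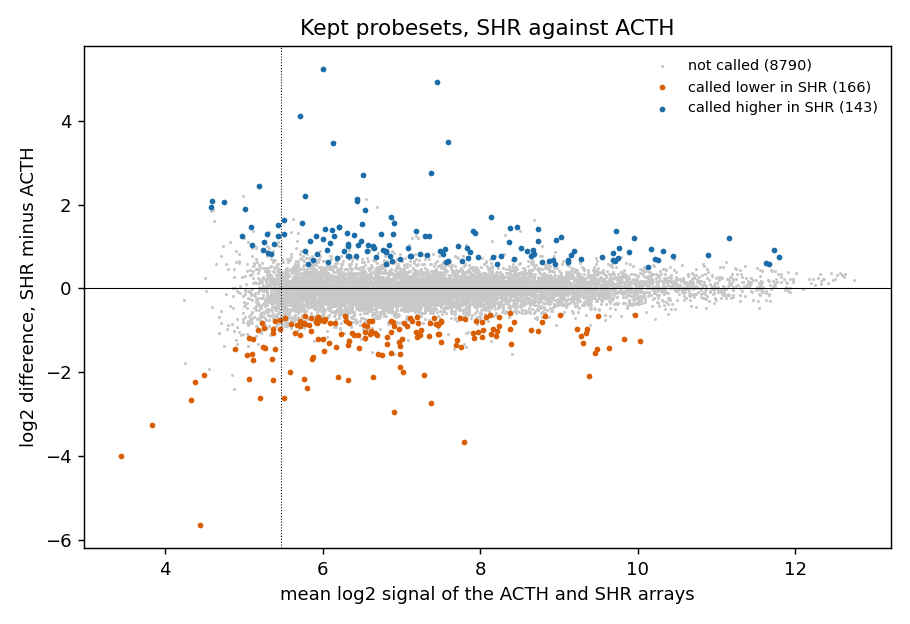
Log2 difference of SHR minus ACTH (vertical axis) against the mean log2 signal of the 6 arrays (horizontal axis) for each of the 9099 kept probesets, with 143 called higher and 166 called lower in SHR in colour. The dotted line marks the signal of 44.3, and most probesets lie close to 0 at every signal.

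The largest decrease belonged to Ptprj, a receptor tyrosine phosphatase that restrains growth factor signalling. Its signal was 164, 163 and 142 on ACTH 1 to 3 and 3.88, 2.27 and 3.3 on SHR 1 to 3. The probeset was above 44.3 on every ACTH array and far under it on every SHR array, and WKY signals of 152, 157 and 125 lay with those of ACTH. Taking 44.3 as the level in SHR, Ptprj was at least 3.52-fold lower in SHR (log2 difference -5.66 ± 0.20 (SE), limma adjusted p = 2.96e-07), and SHR 3 differed from the ACTH arrays of its day by -5.56 (adjusted p = 0.00188). Wherever all arrays of 1 group lay under 44.3, folds below are given in this way as a lower bound.

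Prss35, a secreted protein related to serine proteases, had signals of 332, 251 and 447 in ACTH and 50.1, 35.9 and 44.1 in SHR. It was 7.78-fold lower in SHR (log2 -2.96 ± 0.32, adjusted p = 0.00105, and -2.92 blocked by scan day, adjusted p = 0.0275). Every SHR array lay below every ACTH array by a wide margin. Tmem100, a membrane protein of vascular endothelium that acts downstream of BMP receptors, had signals of 216, 239 and 172 in ACTH and 39.2, 51.8 and 53.4 in SHR. It was 4.34-fold lower in SHR (adjusted p = 0.00267, and 0.0459 blocked by scan day), and SHR 3 was again among the low arrays. Cidea, a protein of lipid droplets in fat cells, had signals of 316, 349 and 300.5 in ACTH and 53.9, 92.6 and 88.1 in SHR. It was 4.22-fold lower in SHR (adjusted p = 0.00125, and 0.0774 blocked by scan day), and the untreated WKY arrays, at 236, 268 and 360.5, were close to ACTH.

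Rbp4, which carries retinol in plasma and is made by liver and fat, stood at 170.5, 188 and 112 in ACTH and 26.1, 48.9 and 34.7 in SHR. Its difference was -2.12 ± 0.37 (log2, adjusted p = 0.0136, and 0.0996 blocked by scan day), and here WKY, at 20.1, 32.2 and 10.8, lay with SHR. Without ACTH 1 or without ACTH 2 it was not called (adjusted p up to 0.0598). Ythdf2, a reader of methylated RNA, was at least 2.88-fold lower in SHR by 1 probeset (-2.38 ± 0.23, adjusted p = 0.000515, and 0.0275 blocked by scan day), while its other probeset gave -0.42 ± 0.20 (adjusted p = 0.315). Cd300c2, a member of a family of myeloid cell receptors, was at least 2.06-fold lower, the adhesion receptor Adgrv1 at least 1.61-fold and the semaphorin Sema4b at least 1.15-fold (adjusted p = 0.00267, 0.0033 and 0.00158). The Adgrv1 probeset exceeded 44.3 on the ACTH arrays alone, so that the rule for keeping probesets favoured its call. Blocked by scan day, the adjusted p was 0.0159 for Cd300c2, 0.0934 for Adgrv1 and 0.0261 for Sema4b. Basp1, a membrane-associated protein of the cell cortex, was also called (-3.27 ± 0.26, adjusted p = 0.000143, and 0.00927 blocked by scan day), but its ACTH signals of 48.1, 40.9 and 43.9 were themselves near 44.3, so that no fold is given, and its WKY signals of 204, 194 and 111 were above both.

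Among called probesets with a gene symbol, the largest increases were in genes of the rat major histocompatibility complex, which present peptides to T cells. RT1-Ba, a class II alpha chain, had signals of 9.43, 29 and 4.14 in ACTH and 403, 360.1 and 419 in SHR. The ACTH arrays were all under 44.3 and the SHR arrays all close to each other, so that RT1-Ba was at least 8.88-fold higher in SHR (5.24 ± 0.69, adjusted p = 0.00359, and 5.33 blocked by scan day, adjusted p = 0.0786). Another probeset of RT1-Ba had the opposite sign and was not called, at -0.75 ± 0.76 (adjusted p = 0.67). RT1-CE16, of class I, had signals of 14.8, 14.5 and 9.37 in ACTH and 229, 282 and 163 in SHR and was at least 4.94-fold higher (4.12 ± 0.42, adjusted p = 0.000801, and 3.69 blocked by scan day, adjusted p = 0.00819). RT1-Bb, the class II chain that pairs with RT1-Ba, went the other way, with 143, 153 and 68.1 in ACTH and 21.4, 20.8 and 14 in SHR. It was at least 2.57-fold lower in SHR (adjusted p = 0.0302, and 0.0545 blocked by scan day), a call that was lost without ACTH 1 or 2 or without any 1 of the SHR arrays (adjusted p up to 0.117). These genes belong to a polymorphic family with close relatives, and the signal of single members from short probes is uncertain.

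Aldh1a1, an enzyme that makes retinoic acid, had signals of 25.5, 28.7 and 22.4 in ACTH and 122, 103 and 129.5 in SHR. It was at least 2.65-fold higher in SHR (2.21 ± 0.17, adjusted p = 9.88e-05, and 2.35 blocked by scan day, adjusted p = 0.014), and WKY lay between the models at 86.9, 75.9 and 63. Rtel1, a DNA helicase that protects telomeres, had 55.1, 46.9 and 44.5 in ACTH and 173, 171 and 189 in SHR, a 3.65-fold increase (adjusted p = 0.000184, and 0.0178 blocked by scan day). Its 3 SHR arrays agreed closely and WKY, at 45.2, 60.9 and 57.5, resembled ACTH. Fry, which encodes a large protein that organises microtubules, showed the same arrangement, with 145, 118 and 225 in ACTH, 553, 449.5 and 523 in SHR and 115, 119.7 and 136 in WKY (3.24-fold, adjusted p = 0.00331, and 0.118 blocked by scan day).

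Mfap4, a glycoprotein of elastic microfibrils, was low in ACTH (56.4, 56.8 and 22.9) and 4.26-fold higher in SHR (110, 246 and 209.6; 2.09 ± 0.38, adjusted p = 0.0151, and 0.218 blocked by scan day). Without SHR 2 or without SHR 3 it was not called (adjusted p up to 0.0632). The metal-binding protein Mt3 was at least 1.93-fold higher in SHR (adjusted p = 0.00437, and 0.0994 blocked by scan day), and Mettl26, a predicted methyltransferase, at least 1.23-fold (adjusted p = 0.00267, and 0.0994 blocked by scan day). Dim signals lay behind the remaining large increases. Csnk2a1, a catalytic subunit of casein kinase 2, was at least 1.12-fold higher by 1 probeset (adjusted p = 0.00813, and 0.198 blocked by scan day), whereas its much brighter probesets gave 0.15 and 0.08 (log2). The lysosomal protein Creg1 was at least 1.06-fold and the interferon-induced family member Ifitm10 at least 1.4-fold higher, with adjusted p of 0.0384 and 0.0264 that rose to 0.124 without WKY 3, any 1 ACTH array or any 1 SHR array and to 0.0947 without ACTH 2 or any 1 SHR array. Blocked by scan day, the adjusted p was 0.0159 for Creg1 and 0.258 for Ifitm10.

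**Figure D2:**
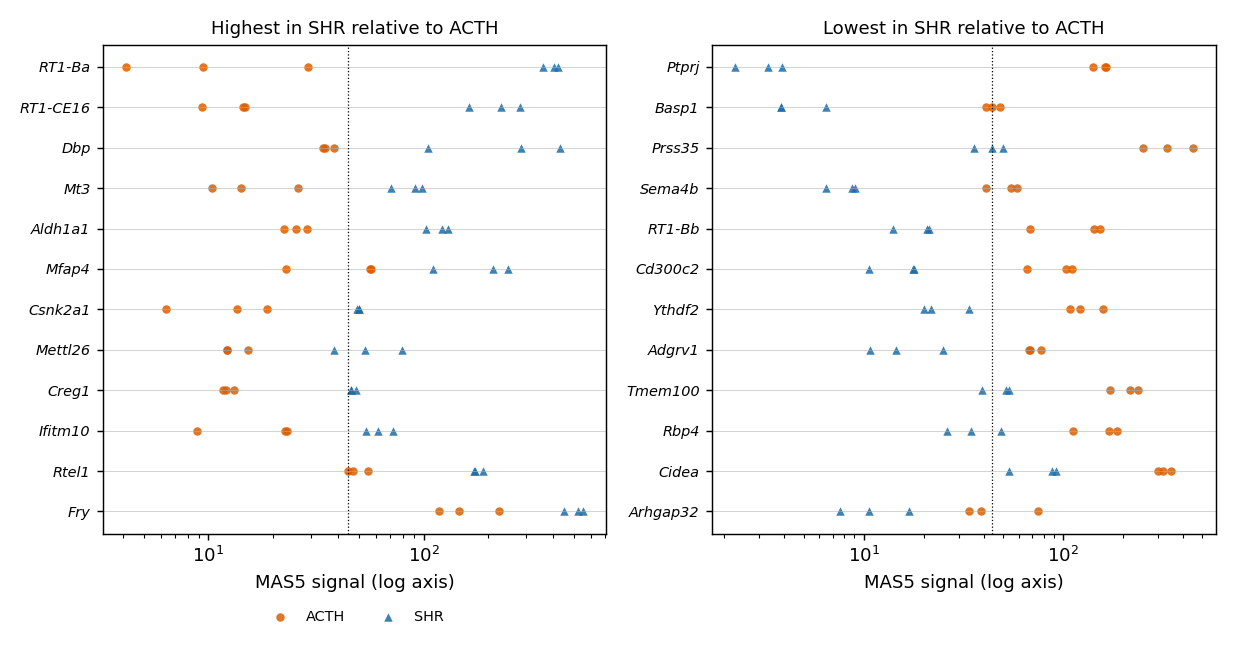
MAS5 signal on a log axis for the 12 largest increases (left) and the 12 largest decreases (right) among called probesets with 1 gene symbol, 1 point an array, with ACTH as circles and SHR as triangles. The dotted line marks the signal of 44.3, under which all ACTH arrays of RT1-Ba and all SHR arrays of Ptprj lie.

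Different probesets of a gene did not always agree. For 60 called probesets another probeset of the gene was kept, and the brightest of these others had the same sign in 44 cases (73.3%), was itself called the same way in 14 and had another sign in 16. Enpep, aminopeptidase A, which degrades angiotensin II, was 2.91-fold lower in SHR by 1 probeset, with 201, 184 and 214 in ACTH and 74.5, 64.8 and 66.8 in SHR (-1.54 ± 0.15, adjusted p = 0.000679). Its other probeset gave 0.44 ± 0.21 (adjusted p = 0.316). Ace, which makes angiotensin II, was 2-fold higher by its dimmer probeset (adjusted p = 0.0136, and up to 0.074 without ACTH 1, ACTH 3 or SHR 2) but -0.47 ± 0.19 by the brighter one (adjusted p = 0.23). The chemokine Cxcl12 gave 1.23 (adjusted p = 0.0117, up to 0.0523 without ACTH 3 or SHR 2) and, with the brighter probeset, -0.42 (adjusted p = 0.354). Icam2, an endothelial adhesion molecule, gave -1.63 (adjusted p = 0.0205, up to 0.0744 without ACTH 1, ACTH 2 or SHR 3) and, with the brighter probeset, 0.19 (adjusted p = 0.616). The reason for these disagreements was not tested. In the gene groups that follow, each gene is counted by its brightest kept probeset. On that basis 104 of 6898 genes were called higher and 112 lower in SHR, 3.13% in all, with a median of -0.02 (log2). Of the 6898 differences 3296 were positive, the background for the counts of positive members given below.

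Several circadian clock genes differed between the models. The clock is a transcriptional loop in which BMAL1 and CLOCK switch on their own repressors, and the output factors that follow drive daily rhythms in the vessel wall. Of 11 clock genes kept, 3 rose in SHR relative to ACTH (Dbp, Nr1d1 and Nr1d2), none fell and 8 were not called, and the median difference was 0.84. Dbp, an output transcription factor, had signals of 34.2, 34.9 and 38.4 in ACTH, 105, 283 and 431 in SHR and 136, 298 and 352 in WKY. It was under 44.3 on every ACTH array and above it on all others, at least 5.28-fold higher in SHR (2.71 ± 0.47, adjusted p = 0.0127), and SHR 3 differed from ACTH by 3.59 within its day (adjusted p = 0.0459). Without ACTH 1 or without SHR 2 the call was lost (adjusted p up to 0.0566).

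Nr1d1, which encodes the repressor REV-ERB alpha, had 63, 78.5 and 69.7 in ACTH and 110, 265 and 305 in SHR, with 279, 393 and 421 in WKY. It was 2.95-fold higher in SHR (1.56 ± 0.33, adjusted p = 0.031), and SHR 1 lay nearest the ACTH arrays. Its relative Nr1d2 was 1.84-fold higher, with 258, 274 and 324 in ACTH and 448, 541 and 591 in SHR (0.88 ± 0.15, adjusted p = 0.0115), and its other probeset gave 0.72 ± 0.18 (adjusted p = 0.0566). The clock genes that were not called included repressors at 1.24 ± 0.37 for Bhlhe41 (adjusted p = 0.106) and 0.84 ± 0.23 for Per2 (adjusted p = 0.0786). Bmal1, the activator of the loop, stood at 132, 112 and 119.6 in ACTH and 102, 38.7 and 36.6 in SHR (-1.20 ± 0.33, adjusted p = 0.0861). Nfil3, which competes with DBP for the same DNA sites, stood at 137, 143 and 129 in ACTH and 53.4, 60.2 and 65.3 in SHR (-1.20 ± 0.32, adjusted p = 0.0766). SHR 1 was the array nearest ACTH also for Dbp, Bhlhe41 and Bmal1. The number of clock genes called ranged from 0, without ACTH 1 or without SHR 2, to 5 when other single arrays were left out, and was 1 in the fit blocked by scan day. The hour at which the arteries were taken is not given in the sources used here, and its part in these differences was not tested.

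Promoters of the clock genes called are printed because these genes moved together. Each line gives the 300 bases from 250 before to 50 after a transcription start in RefSeq (GRCr8), on the strand of the gene, with motif matches in capitals. The motifs searched on both strands were the E-box CACGTG, to which BMAL1 and CLOCK bind, the D-box TTATGTAA of DBP and NFIL3, the core AGGTCA of REV-ERB and ROR sites and the half-site AGAACA of the glucocorticoid receptor. Among 33469 RefSeq promoters of this length they occurred in 6.42%, 0.893%, 16.2% and 20.7%, respectively.
Dbp, chr1:105312006-105312305, plus strand: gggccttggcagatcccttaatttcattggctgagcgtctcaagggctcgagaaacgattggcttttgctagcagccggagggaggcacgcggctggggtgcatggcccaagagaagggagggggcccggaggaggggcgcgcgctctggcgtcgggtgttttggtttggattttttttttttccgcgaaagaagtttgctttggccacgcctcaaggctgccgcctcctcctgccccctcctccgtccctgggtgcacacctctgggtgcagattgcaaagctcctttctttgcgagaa
Nr1d1, chr10:84231763-84232062, minus strand: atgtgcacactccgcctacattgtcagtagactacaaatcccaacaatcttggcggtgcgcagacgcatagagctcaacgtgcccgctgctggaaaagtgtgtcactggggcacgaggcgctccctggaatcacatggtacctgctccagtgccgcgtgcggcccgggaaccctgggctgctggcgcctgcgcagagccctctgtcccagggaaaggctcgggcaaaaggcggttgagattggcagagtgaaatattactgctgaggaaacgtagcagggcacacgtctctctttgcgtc
Nr1d1, second start, chr10:84229405-84229704, minus strand: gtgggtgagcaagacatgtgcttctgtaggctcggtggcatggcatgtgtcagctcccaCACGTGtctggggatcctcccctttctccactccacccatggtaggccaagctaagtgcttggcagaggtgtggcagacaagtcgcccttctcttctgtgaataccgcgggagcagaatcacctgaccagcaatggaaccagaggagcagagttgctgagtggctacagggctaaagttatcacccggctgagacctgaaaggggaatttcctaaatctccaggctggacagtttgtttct
Nr1d2, chr15:9954784-9955083, plus strand: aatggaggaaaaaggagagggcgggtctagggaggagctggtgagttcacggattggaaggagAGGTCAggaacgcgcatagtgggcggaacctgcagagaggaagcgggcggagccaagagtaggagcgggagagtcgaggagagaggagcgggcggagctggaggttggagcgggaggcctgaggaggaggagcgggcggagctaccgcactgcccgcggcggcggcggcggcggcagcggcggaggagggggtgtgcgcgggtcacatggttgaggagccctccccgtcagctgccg
The window of Dbp and that of the first Nr1d1 start held none of the motifs. The window of the second Nr1d1 start held 1 E-box, 191 bases before the start, and that of Nr1d2 held 1 AGGTCA core, 187 bases before the start.

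Genes known to respond to glucocorticoids moved in both directions. Of 23 kept, 2 were higher in SHR, 3 were lower and 18 were not called, with a median of 0.13. Dusp1, a phosphatase that switches off MAP kinases and a classical glucocorticoid target, had signals of 1099, 1214 and 1651 in ACTH and 472, 500.1 and 479 in SHR. All SHR arrays lay below all ACTH arrays, and Dusp1 was 2.69-fold lower in SHR (-1.43 ± 0.20, adjusted p = 0.00452). Angptl4, a secreted protein that blocks lipoprotein lipase, was 2.64-fold lower (356, 450.3 and 272 in ACTH, 105, 159.6 and 142 in SHR, adjusted p = 0.0207), and the cell cycle inhibitor Cdkn1c 1.75-fold lower (adjusted p = 0.023). Tsc22d3 (GILZ), another classical target, was instead 1.74-fold higher in SHR, with 458, 425 and 417 in ACTH and 708, 711 and 846 in SHR (adjusted p = 0.0175). Rgs2, which shortens signals through Gq-coupled receptors, was higher in SHR by both probesets, at 0.69 ± 0.14 (adjusted p = 0.0262) and 1.29 ± 0.27 (adjusted p = 0.0294). Klf9, Glul and Nfkbia, which are also known to respond to glucocorticoids, were not called (0.20, -0.35 and 0.20). When single arrays were left out, 1 of these genes was called without ACTH 2, 2 without ACTH 1, ACTH 3, SHR 2 or SHR 3 and 4 or 5 otherwise, and 0 in the fit blocked by scan day.

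Immediate early genes, which respond within minutes to stimulation or handling, had a median of -0.36, with 4 of 20 positive, and Dusp1 was the member called. Jun gave -1.03 ± 0.21 (adjusted p = 0.0251) with 1 of its probesets, not called without ACTH 1, ACTH 3, SHR 1 or SHR 3 (adjusted p up to 0.0806), and -0.55 with the brightest (adjusted p = 0.114). Egr1, at -0.11, and Ier2, at 0.13, were not called. In the insulin-like growth factor system 1 of 14 kept genes was called, and the median was -0.12. Igfbp3, the main carrier of these factors, had signals of 1155, 1702 and 871 in ACTH and 398, 428 and 412 in SHR. SHR arrays were close to each other and near WKY (345, 356 and 361), and Igfbp3 was 2.9-fold lower in SHR by this probeset (-1.54 ± 0.21, adjusted p = 0.00437) and 2.72-fold lower by the other (adjusted p = 0.0044). Igfbp5 was not called, at 1.20 (adjusted p = 0.0514) and 0.69 (adjusted p = 0.0534) with its probesets.

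Several collagen transcripts were higher in SHR than in ACTH. Collagens I and III are the fibres that give the artery its tensile strength, and collagens IV, XV and XVIII belong to basement membranes. Of 5 fibrillar collagens kept, Col1a1, Col1a2 and Col3a1 rose in SHR relative to ACTH, all 5 differences were positive and the median was 0.75. Col1a1 had 851, 760.3 and 439 in ACTH and 1285, 1571 and 1659.7 in SHR (2.28-fold, adjusted p = 0.037). Col3a1 had 2841, 2524 and 2105 in ACTH and 5805, 4234 and 4157 in SHR (1.89-fold, adjusted p = 0.0182). Col1a2 was 1.68-fold higher (adjusted p = 0.0393), and Col5a1, with 0.75 ± 0.20, was not called (adjusted p = 0.074). The summed signal of the 5 was 6156 to 8682 on the ACTH arrays and 12614 to 13936 on the SHR arrays. On the WKY arrays it was 12577 to 15767, a range that held the SHR sums. Single members differed in this. Col1a1 had 2438, 3207 and 1941 in WKY, above every SHR array. The dimmer probeset of Col1a2 had 4511, 3537 and 3448 in WKY and 2824, 2619 and 2878 in SHR. Col3a1, with 4174, 4367 and 3985 in WKY, overlapped with SHR.

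Of 11 other collagens, all were positive (median 0.54) and Col4a2, Col15a1 and Col18a1 were called. Col4a2 had 506, 573 and 502 in ACTH and 789.9, 1726 and 1817 in SHR (2.57-fold, adjusted p = 0.0237), with SHR 1 nearest ACTH. Col15a1 was 1.9-fold and Col18a1 1.81-fold higher (adjusted p = 0.023 and 0.034). Col4a1, the partner chain of Col4a2, was not called (0.29, adjusted p = 0.304). Among 16 genes of collagen processing, Pcolce, which helps to cleave procollagen, was 2.5-fold higher (adjusted p = 0.0216) and the collagen chaperone Serpinh1 1.69-fold higher (adjusted p = 0.0267), while the crosslinking enzyme Lox stood at -0.20 (adjusted p = 0.547). These calls depended on single arrays. Of the 16 collagens of either kind, 0 were called without ACTH 2 or without ACTH 3, 1 without SHR 2, 2 without ACTH 1 or without SHR 3, 3 without SHR 1 and 0 in the fit blocked by scan day. Pcolce and Serpinh1 were both lost without ACTH 1, ACTH 3, SHR 2 or SHR 3. The within-day differences were 1.34 for Col1a1, 0.75 for Col3a1 and 1.79 for Col4a2 (log2).

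Other matrix genes were mixed. Fmod, a proteoglycan that binds collagen fibrils, had 934, 1008 and 882 in ACTH and 1577, 1971 and 1697 in SHR. It was 1.85-fold higher in SHR (adjusted p = 0.00817). Blocked by scan day, where SHR 3 alone stands for SHR, the difference was 0.85 (log2) and was not called. Fmod was called in all 9 fits without 1 array. It was the 1 of 15 proteoglycans called, whereas Dcn gave -0.31 and Bgn 0.25. Sparc, a collagen-binding matricellular protein, had 1752, 1488 and 1304 in ACTH and 3160.1, 4107 and 3259 in SHR and was 2.32-fold higher (adjusted p = 0.00437), also in all 9 of those fits. Smoc1, a relative of Sparc found in basement membranes, was lower in SHR, with 127, 107 and 141 in ACTH and 42.4, 51.4 and 64.6 in SHR (2.39-fold, adjusted p = 0.00452), and the 10 matricellular genes had a median of -0.54. Emilin1 and Mfap4 were higher among 15 genes of elastic fibres, of which Eln, elastin itself, stood at -0.29 ± 0.38 (adjusted p = 0.755) and Fbn1 at 0.11. Emilin1 was not called without any 1 ACTH array, SHR 2 or SHR 3 (adjusted p up to 0.12). None of 11 metalloproteinases and inhibitors was called, with 0.02 for Mmp2 and -0.22 to 0.23 for the probesets of Timp3.

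**Figure D3:**
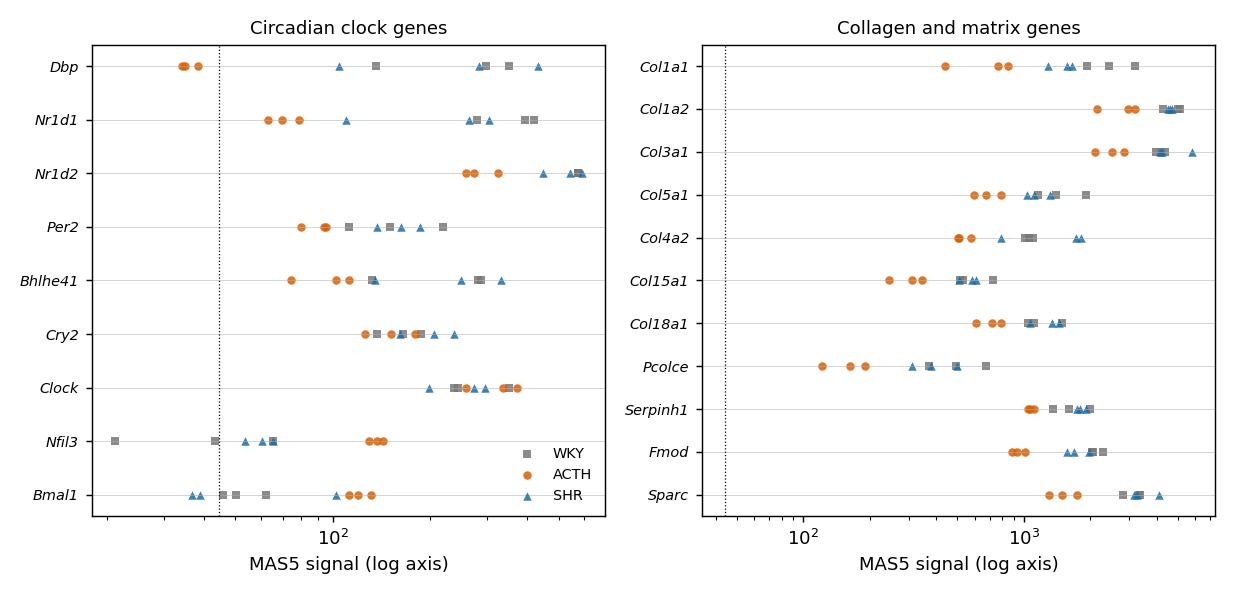
MAS5 signal on a log axis for clock genes (left) and collagen and matrix genes (right), 1 point an array and the brightest probeset of each gene, with WKY as squares, ACTH as circles and SHR as triangles. For Dbp, Nr1d1 and the collagens the ACTH arrays lie lowest. SHR lies with or near WKY for most of these, and between ACTH and WKY for Col1a1. For Bmal1 and Nfil3 ACTH lies highest.

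Of 23 genes of the contractile machinery of smooth muscle, Des was the 1 called, and the median was 0.06. Des, desmin, the intermediate filament of muscle, had 1709.8, 1668 and 1477 in ACTH and 459, 807 and 838 in SHR, with 1786, 1687 and 2109.7 in WKY. It was 2.39-fold lower in SHR (adjusted p = 0.0136), a call lost without ACTH 1 (adjusted p = 0.0631). Of the 23 differences 12 were positive and 11 negative. Myh11 (0.28 ± 0.14), Tagln (0.33 ± 0.14), Tpm2 (0.32 ± 0.13) and Myl9 (0.37 ± 0.13) were among the positive ones and not called. The summed signal of the 23 was 61134 to 62444 in ACTH and 67464 to 67865 in SHR, within the range of WKY (59353 to 68868).

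Of 17 genes of calcium handling, Casq2, which stores calcium in the sarcoplasmic reticulum, was 1.78-fold higher in SHR (adjusted p = 0.0151) and the calmodulin-dependent kinase Camk2d 1.59-fold higher (adjusted p = 0.026). The adjusted p of Casq2 rose to 0.0661 without any 1 ACTH array or SHR 3, and that of Camk2d to 0.114 without any 1 ACTH array, SHR 1 or SHR 2. Atp2a2, the pump that refills the store, was not called (0.24, 0.30 and -0.13 with its probesets). Atp1b1, the beta subunit of the sodium pump, had 211, 205 and 225 in ACTH and 439.8, 673 and 680.5 in SHR. It was 2.74-fold higher in SHR by the brighter probeset (1.46 ± 0.22, adjusted p = 0.00751) and 2.75-fold by the other (adjusted p = 0.0117, up to 0.0517 without SHR 2), and WKY, at 238, 307 and 403, was nearer ACTH. Among the 12 genes of ion channels and this pump, Trpm7, a magnesium and calcium channel, was 2.55-fold lower by its brighter probeset (adjusted p = 0.0207, up to 0.0884 without ACTH 1, ACTH 3, SHR 2 or SHR 3) and stood at 0.11 by the other. Kcnma1, the large-conductance potassium channel, gave -0.62 (adjusted p = 0.127).

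Few genes of vasoactive systems were called, as held for all genes counted by their brightest probeset (3.13%). Of 24 regulators of G-protein signalling Rgs2 was the 1 called, with an adjusted p of up to 0.114 without any 1 ACTH array or SHR 2, and Rgs4 (0.02), Gnas (-0.08) and Gna12 (-0.19) were not. None of 9 genes of the renin-angiotensin system was called by the brightest probeset, including the receptor Agtr1a, at -0.97 ± 0.30 (adjusted p = 0.12). None of 11 genes of the endothelin and nitric oxide systems was called that way. Gucy1b1, a subunit of the guanylyl cyclase that senses nitric oxide, was 2.2-fold lower in SHR by 1 probeset (478, 337 and 511 in ACTH, 201, 210.3 and 184 in SHR, adjusted p = 0.00906, and 0.0508 without ACTH 1) and stood at -0.57 by the other (adjusted p = 0.349). None of 5 genes of caveolae, the membrane pits that concentrate signalling proteins, was called, with -0.08 ± 0.21 for the brighter probeset of Cav1 (adjusted p = 0.88) and 0.15 ± 0.12 for Cavin3. The dimmer probeset of Cav1, the one that the study lists, gave 0.18 ± 0.19 (adjusted p = 0.686). All its ACTH and SHR signals lay above those of WKY. By the study's quantitative PCR, the fold-change of Cav1 over WKY was larger in SHR than in ACTH.

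Most differences of interferon-stimulated genes were positive, 19 of 24 with a median of 0.4, and Psmb8, Ifit1, Ifi27 and Irf7 were called, all higher. Psmb8, a subunit of the immunoproteasome, had 233, 262 and 188 in ACTH and 491, 494 and 465 in SHR. It was 2.14-fold higher in SHR (adjusted p = 0.00979) and was called in all 9 fits without 1 array. Ifit1, an antiviral RNA-binding protein, was 2.18-fold higher, Ifi27 1.91-fold and the transcription factor Irf7 1.87-fold (adjusted p = 0.0112, 0.0203 and 0.0249). When single arrays were left out, 1 member was called without ACTH 1 or without SHR 2, 2 without SHR 3 and 3 to 5 otherwise, and 0 in the fit blocked by scan day.

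In the list of histocompatibility and antigen processing, 3 of 21 kept genes were higher and 1 lower, with a median of 0.29. Besides RT1-CE16 and RT1-Bb, the called members were RT1-T24-3, at 206, 187 and 218 in ACTH and 451, 663 and 555 in SHR (2.7-fold, adjusted p = 0.00452), and RT1-A3 (1.59-fold, adjusted p = 0.0381, up to 0.173 without WKY 2, any 1 ACTH array or any 1 SHR array). RT1-Ba counted in this list by its other probeset, with the higher mean log2 signal over the arrays, and so as not called at -0.75 (log2). The class II chain RT1-Da was not called at 1.64 ± 0.52 (adjusted p = 0.132), nor was B2m, the light chain of class I, at 0.52 ± 0.14 (adjusted p = 0.0801). Without ACTH 1, ACTH 2 or any 1 SHR array, 2 genes of this list were called. Complement genes had a median of -0.49 with none of 11 called, from -1.45 for C1qc (adjusted p = 0.141) to 0.61 for the inhibitor Serping1 (adjusted p = 0.0596).

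Markers of other cell types were examined because each array held RNA of a whole vessel, in which fewer cells of a type and less RNA per cell cannot be told apart. Macrophage markers had a median of -0.51, with 2 of 15 positive. Ms4a6bl1 (91.7, 104 and 97.8 in ACTH, 49.7, 41.4 and 37 in SHR), Cd14 (183, 177 and 167 and 127, 77.5 and 97.1) and the Fc receptor Fcgr2b (53.9, 58 and 47.7 and 35.5, 26.4 and 22.4) were lower in SHR (adjusted p = 0.00859, 0.0373 and 0.0249). Mpeg1, a pore-forming protein of macrophages, was higher in SHR (45.7, 41.7 and 32 in ACTH, 104, 74.3 and 105 in SHR, adjusted p = 0.046). The summed signal of the 15 was 2815 to 3728 in ACTH, 2106 to 2945 in SHR and 1191 to 2373 in WKY, so that the groups overlapped. Between 1 and 6 of these markers were called when single arrays were left out, 1 of them without any 1 ACTH array, SHR 2 or SHR 3, 2 without WKY 3, and 0 in the fit blocked by scan day. The part of macrophages in the complement and histocompatibility values was not tested.

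Of 18 endothelial markers, the growth factor receptor Flt1 was called, with 21.2, 23.7 and 31.4 in ACTH and 54.3, 58.5 and 72.4 in SHR (at least 1.38-fold higher, adjusted p = 0.016, up to 0.0764 without ACTH 1, ACTH 2, SHR 2 or SHR 3). Vwf, at -0.87 ± 0.21 (adjusted p = 0.0534), and Cldn5, at 0.33 ± 0.13 (adjusted p = 0.235), were not. The summed endothelial signal was 6777 to 7394 in ACTH and 7497 to 8256 in SHR. None of 13 fibroblast markers was called (median -0.1), nor any of 6 Schwann cell, 7 skeletal muscle, 3 lymphocyte and mast cell or 3 blood markers. Of 18 adipocyte markers, Cidea and Rbp4 were lower and Lipe, hormone-sensitive lipase, was 2.27-fold higher in SHR (adjusted p = 0.0117, and 0.0532 without ACTH 1), and the median was -0.09. Their summed signal was 3455 to 3878 in ACTH and 2952 to 3514 in SHR, so that the groups overlapped.

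Genes of retinoid metabolism included large differences in both directions. Of 13 kept, Aldh1a1, which makes retinoic acid, was higher in SHR, whereas Rbp4, which delivers retinol, and Cyp26b1, which degrades retinoic acid, were lower. Cyp26b1 had 202, 248 and 132 in ACTH and 74.6, 36 and 88.7 in SHR (3.03-fold, adjusted p = 0.0249), and the call was lost without ACTH 1, ACTH 2 or SHR 2 (adjusted p up to 0.0946). The receptors Rarb (-0.39) and Rarg (-0.22) were not called. In fatty acid oxidation, the acyl-CoA synthetases Acsl3 (2.51-fold, adjusted p = 0.0105) and Acsl1 (1.51-fold, adjusted p = 0.0457) were lower in SHR among 24 genes, and Acsl1 was called in none of the 9 fits without 1 array. No gene of 19 for cholesterol synthesis was called.

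Differences of genes of oxidative phosphorylation were small in size and mostly positive, against 3296 positive of all 6898 genes. Of 78 kept, 60 differences were positive, with a median of 0.13, and Ndufa12 was the 1 called, at 1.59-fold (adjusted p = 0.0309, up to 0.143 without any 1 ACTH array, SHR 2 or SHR 3). Of 70 genes of the mitochondrial ribosome, 49 were positive, with a median of 0.14, and Mrpl4 was 1.74-fold lower, with 439.6, 437 and 491 in ACTH and 242, 261 and 284 in SHR (adjusted p = 0.00887). Cytosolic ribosomal proteins had a median of -0.01 with none of 40 called, and none of 30 heat shock genes or of 27 endoplasmic reticulum genes was called.

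Among genes that control growth, the cyclins Ccnd1 and Ccnd2, which carry cells into the cycle, were higher in SHR and the inhibitor Cdkn1c was lower, out of 21 kept. Ccnd1 was 1.85-fold and 1.86-fold higher by its called probesets (adjusted p = 0.0174 and 0.0219), and Ccnd2 1.78-fold (adjusted p = 0.0186). The number called in this list was 0 without ACTH 3 and 1 without ACTH 1, ACTH 2, SHR 2 or SHR 3. In signalling by TGF-beta and bone morphogenetic proteins, Nrep, a regulator of TGF-beta expression, was higher and Bmp4 and Bmp6 were lower, out of 31. Nrep had 278, 279 and 228 in ACTH and 787, 688 and 628 in SHR (2.68-fold, adjusted p = 0.00351). Bmp4 had 276, 263 and 248 in ACTH and 136, 115 and 117 in SHR (2.14-fold, adjusted p = 0.00359), and Bmp6 was 1.95-fold and 1.75-fold lower by its probesets (adjusted p = 0.00835 and 0.0211). The 1.75-fold call of Bmp6 was lost without any 1 ACTH array, SHR 1 or SHR 2 (adjusted p up to 0.0916). The receptor target Id1 was not called (0.33, adjusted p = 0.604).

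In coagulation, F3, tissue factor, which starts clotting, was 1.97-fold lower in SHR, with 919, 903 and 943 in ACTH and 538, 462 and 412 in SHR (adjusted p = 0.0105, and 0.0508 without ACTH 1). Its inhibitor Tfpi was 2.51-fold higher by 1 probeset (adjusted p = 0.00817) and stood at 0.20 by the other, and the other 14 genes were not called. Among antioxidant genes, Nqo1, Glo1 and the glutathione transferase Gstm7 were lower in SHR (1.56-fold, 1.59-fold and 2.09-fold, adjusted p = 0.0284, 0.0164 and 0.045), and Mt3 was higher, out of 34. Their adjusted p rose to 0.124 without any 1 ACTH array, SHR 2 or SHR 3, to 0.0939 without ACTH 1, ACTH 3 or SHR 2 and to 0.136 without WKY 2, WKY 3, any 1 ACTH array, SHR 1 or SHR 3. Of 29 lysosomal genes the collagen-degrading protease Ctsk was 1.74-fold higher (adjusted p = 0.0211, up to 0.102 without any 1 ACTH array, SHR 1 or SHR 2) and the protease Lgmn 2.05-fold lower, with 377, 344 and 361 in ACTH and 199.9, 174 and 156 in SHR (adjusted p = 0.00421). Il1r2, the decoy receptor for interleukin 1, was at least 1.39-fold lower (adjusted p = 0.0116, up to 0.0565 without ACTH 1 or ACTH 3), and the other 14 chemokine and cytokine genes were not called by their brightest probeset. Anxa8 was the 1 of 16 annexins and S100 proteins called, at 2.06-fold lower (adjusted p = 0.00817).

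Of the genes that the study measured by quantitative PCR, most were chosen for their array values, so that their directions are not independent evidence. Here 12 were counted, and transferrin was not because its probeset carries several symbols. On the arrays Myof, a membrane repair protein, and Rgs2 were higher in SHR, Des, Igfbp3 and the non-coding RNA Gas5 were lower, and 7 were not called. Pik3r1, a regulatory subunit of phosphatidylinositol 3-kinase, was counted among the 7 by a dim probeset (-0.75 ± 0.24, adjusted p = 0.136). The probeset that the study's methods assign to Pik3r1 has no symbol in the platform annotation and so entered no list. Its signals were 56.1, 60.1 and 55.9 in ACTH, 996.6, 513.1 and 528.7 in SHR and 55.9, 51.3 and 47.1 in WKY. It was 11.3-fold higher in SHR (3.50 ± 0.23, adjusted p = 3.59e-05), was called in all 9 fits without 1 array and stood at 3.20 blocked by scan day (adjusted p = 0.0227). The 2 probesets of Pik3r1 differed in sign. The study's quantitative PCR found Pik3r1 raised over WKY to a similar extent in both models, and so does not show this gap between SHR and ACTH. Myof had 185, 152 and 184 in ACTH and 338, 288 and 325 in SHR (1.83-fold, adjusted p = 0.0105), and Gas5 had 234, 168 and 232 and 100.3, 113 and 92.3 (2.06-fold lower, adjusted p = 0.00817). The endothelial synthase Nos3 stood at 0.27 ± 0.28, adenylyl cyclase Adcy3 at 0.06 ± 0.15, and the connexins Gja4, Gja5 and Gja1 at 0.22 ± 0.14, 0.20 ± 0.21 and 0.42 ± 0.21 (log2). By the study's quantitative PCR, Gja1 was below WKY in SHR and unchanged in ACTH, opposite in direction to the array difference.

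**Figure D4:**
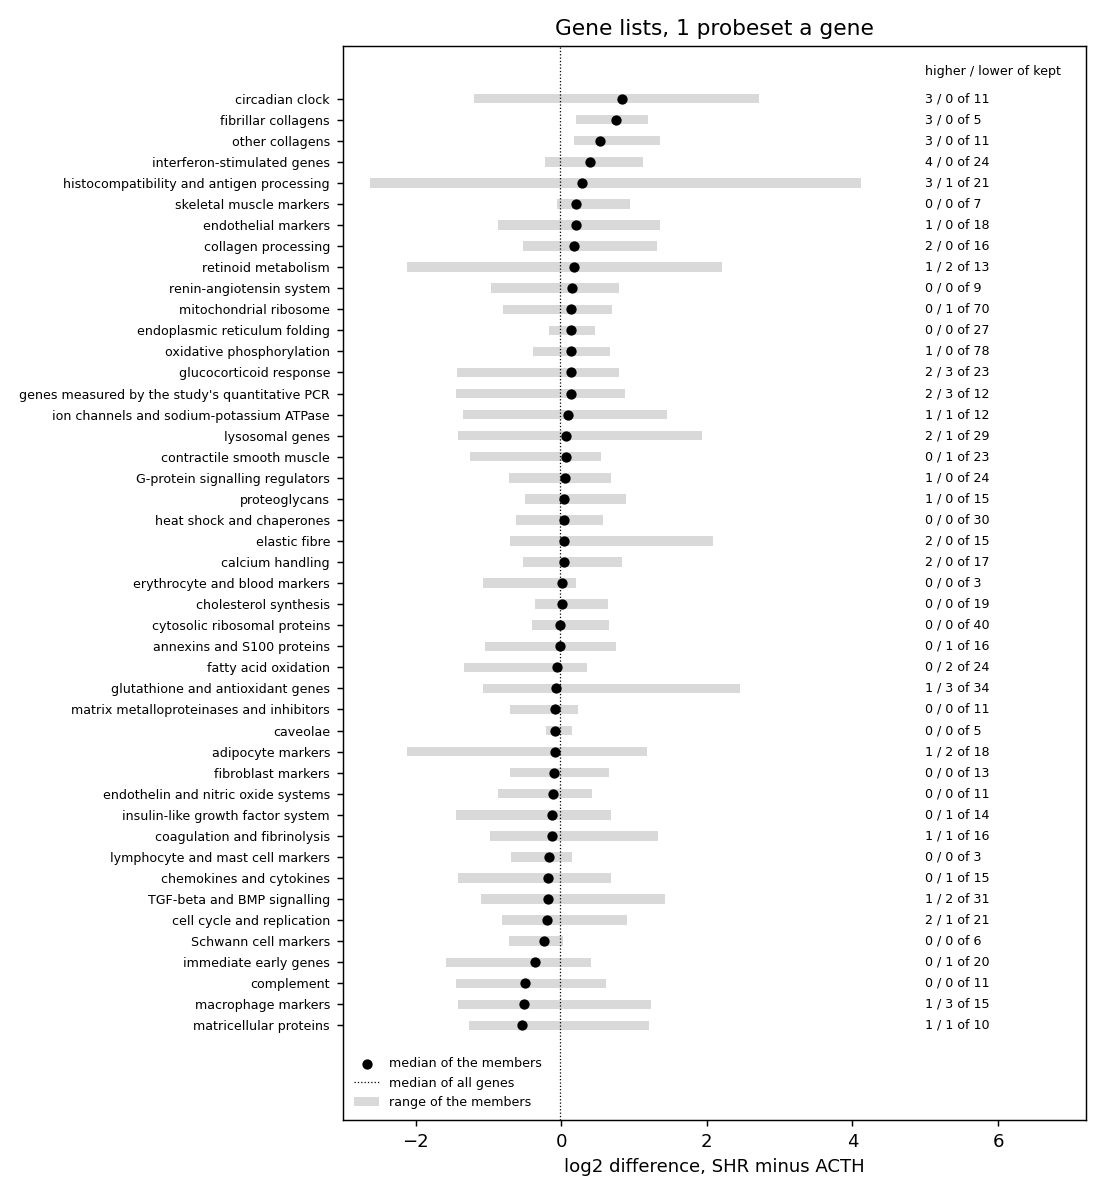
Median (point) and range (bar) of the log2 difference of SHR minus ACTH for the members of each gene list, 1 probeset a gene, with the count called higher and lower of those kept at the right. The dotted line is the median of all genes at -0.02, and the clock and both collagen lists have the highest medians.

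The untreated WKY arrays show to which model a gene lay nearer. The WKY mean lay between the means of the models for 86 of the 143 called increases and 114 of the 166 called decreases. For these, both models departed from WKY, in opposite directions, so that nearness does not place the difference on 1 side. For 117 of the 166 called decreases (70.5%) and 85 of the 143 called increases (59.4%) the WKY mean was nearer to ACTH, the group of the same strain, against 55.1% of all kept probesets. Ptprj, Prss35, Cidea and Des, which were low in SHR, and Rtel1, Fry, RT1-CE16 and Atp1b1, which were high in SHR, were of this kind. The WKY mean was nearer to SHR for 49 decreases and 58 increases. These included Igfbp3, Enpep, Angptl4, F3 and Rbp4, which were high in ACTH, and Dbp, Nr1d1, Col1a1, Col3a1, Fmod and Nrep, which were low in ACTH. The median difference of WKY minus ACTH was 0.79 over the 11 clock genes, 0.81 over the fibrillar and 0.76 over the other collagens and -0.96 over the macrophage markers. No test was made on these positions, since the ACTH arrays enter both differences.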

How the data were processed

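Gene expression was measured on 9 Affymetrix RAE230A arrays in 3 groups of 3 (WKY, ACTH and SHR), grouped by the sample titles, and SHR was compared with ACTH. The authors amplified the RNA in 2 rounds, calculated probeset signals with the MAS5 algorithm and scaled each array to a target of 150. The deposited table holds these intensity values, not logged, and no detection calls. The number of arrays limits the precision, and p-values measure the spread between pools of 2 to 3 rats.

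Signals were converted to log2. The 57 control probesets were left out of the comparison, and 9099 probesets with a third-highest signal of 44.3 or more were kept, a rule that stands in for the detection calls of the study's methods. Symbols come from the platform annotation, and matching their gene identifiers to RefSeq changed 0 of them. Of the kept probesets 7721 have 1 symbol (6898 genes), 220 several and 1158 none, and 62 called probesets have no or several symbols. A linear model with a mean for each group was fitted with limma 3.58.1 under R 4.3.3 (lmFit, contrasts.fit and eBayes without trend, 6 residual and 4.44 prior degrees of freedom), and two-sided p-values were adjusted by the Benjamini-Hochberg method over the 9099 probesets with a threshold of 0.05. The methods' F test and contrast were also run without moderation at their own thresholds of 0.02 and 0.015. Control ratios were compared by exact permutation tests (Python 3.11.15, scipy 1.17.1). The fit was tested on simulated data.

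Named were the 12 largest increases and decreases among called probesets with 1 symbol, up to 4 called members of each gene list with the lowest adjusted p, the genes of the study's quantitative PCR, the other kept probesets of a gene so named, and up to 6 members a list with the highest signal that were not called. For Pik3r1 the probeset that the study's methods list was added after its values were seen. Of the 12 decreases, 1 is plotted but not reported here in words. The comparison, its lists and this rule were chosen with earlier results of these data known. The alternatives tested every non-control probeset, set a minimum mean signal of 100, scaled by quantiles or by the median, added 16 before log2, raised signals to 44.3, and used a variance trend, array weights, the unmoderated contrast, the ACTH and SHR arrays alone, a GAPDH 3'/5' covariate, blocks for scan day or for replicate number, the ACTH arrays against SHR 3 alone, the probeset with the lowest p for each gene, and each array left out.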

Additional observations from a re-analysis of the deposited data

How the results depend on the processing

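Against 309 called probesets, 52 were called when all 15866 non-control probesets were tested, 883 with array weights, 119 with the unmoderated contrast, 35 with scan day as a block and 46 for SHR 3 against the ACTH arrays of its day, and between 111 and 324 when 1 array was left out. At the methods' own thresholds 601 probesets passed, of which 297 were among the 309. The 67 called genes of the lists became 7, 146, 25, 7 and 15 under the first 5 of these settings and between 26 and 81 without 1 array. Quantile normalization and median centring moved the median difference from -0.02 to 0.0 and 0.02, and centring moved the share of calls that were higher in SHR from 46.3% to 55.0%. The other settings kept both counts within 1.5 times. Among the named probesets that were called no direction was reversed, which for the settings that leave out arrays is fixed by the choice of probesets, since the SHR and ACTH arrays of all 309 do not overlap.

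The replicate block gave 261 called probesets, 231 of them shared, and 66 called list genes. The deviations of same-numbered SHR and ACTH arrays correlated at 0.072, 0.0783 and -0.0672, and those of the other pairs at -0.128 to 0.0872. With 3 arrays a group these values cannot settle whether equal numbers mark a pairing.

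Of 93 called probesets named by their symbol, 19 remained called when every non-control probeset was tested, 14 in the fit blocked by scan day, 22 within the day of SHR 3, 38 without moderation, 85 with the replicate block and 47 without ACTH 1. Signals under 44.3 on all arrays of a group give only a bound, as for 26 of the called increases and 39 of the called decreases. The scan day settings rest on SHR 3 as the only SHR array, with 3 and 2 residual degrees of freedom, so that their lower counts do not show that the differences are smaller.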
